A study of Mus musculus with 5 samples.

Results

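The 9 genes of monocyte recruitment were followed through the lungs of mice exposed to airborne particles, allergen and 2 drugs. They are 7 ligands, Ccl2, Ccl7, Ccl12, Ccl3, Ccl4, Ccl6 and Ccl9, and 2 receptors, Ccr1 and Ccr2. Each was found by an exact match of its symbol among the 23183 symbols in the count files, and all 9 were among the 14305 genes whose mean level reached 1 CPM, a gene's count relative to the scaled total of its library. RNA came from whole lung of female wild-type BALB/c mice in 5 groups with 1 library each. Control mice are labelled as having no treatment. The PM10 group received inhalable particulate matter into the nose 4 times over 2 weeks, and the PM10/OVA group received PM10 and also ovalbumin (OVA), an egg protein used as an allergen, by injection and then into the nose. The PM10/OVA/CPX group had both exposures and 6 injections of a chitinase-1 inhibitor over 3 weeks, and the PM10/OVA/Dex group had both exposures and 3 injections of the glucocorticoid dexamethasone in the last week. The animals were killed and the lungs removed 2 days after their final challenge. The labels state neither dose, age nor vehicle, and they leave unsaid whether a library holds 1 animal or a pool.

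CC chemokines are small secreted proteins, named for a pair of adjacent cysteines, that bind G protein-coupled receptors on leukocytes and direct their movement. Ccr2 is the receptor by which inflammatory monocytes leave the bone marrow and enter tissue, and Ccl2, Ccl7 and Ccl12 are its ligands. Ccl3 and Ccl4 are closely related inflammatory ligands, of which Ccl3 binds Ccr1, and Ccl6 and Ccl9 are rodent chemokines that act through Ccr1, a receptor of monocytes, macrophages and neutrophils. In the lung, recruited monocytes give rise to macrophages, and both epithelium and macrophages can make these ligands.

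The libraries held 11993222 to 16929068 counts, so 1 count was worth 0.0577 to 0.0841 CPM and the limit of 3 counts set for a value of 0 was 0.173 to 0.252 CPM. No member was at 0 in any library. With 1 library per group there is no replicate spread and no test between conditions. Every fold below is a ratio of 2 libraries with an exact 95% interval that covers counting error only, and no difference has a replicate check. The lung was checked against 11 epithelial markers, among them the surfactant gene Sftpc, which summed to 37771 to 50409 CPM. Heart-muscle, fat and cartilage markers were highest in the control library, at 3443, 357 and 77.1 CPM in sum, against at most 712, 96.9 and 7.70 CPM in any other. The content also differed among the exposed libraries. Heart-muscle markers summed to 712 CPM with PM10, 302 with PM10/OVA, 267 with added CPX and 677 with added dexamethasone. Whether this unequal content of neighbouring tissue enters a ratio between any 2 libraries was not tested.

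The Ccr2 ligands were scarce in control lung, higher with particles and highest with particles and allergen. Ccl2 (GRCm38, chromosome 11, 82035571 to 82037453, protein-coding), the main monocyte attractant, was at 0.922 CPM without exposure, 6.88 with PM10, 23.2 with PM10/OVA, 3.83 with added CPX and 1.68 with added dexamethasone. The PM10/OVA library stood above the other 4, and the counting intervals of the ratios of neighbouring levels all excluded 1 except that of PM10/OVA/Dex over control. Ccl2 was 7.45-fold higher in PM10 than in control (interval 4.33 to 13.6) and 3.38-fold higher in PM10/OVA than in PM10 (2.65 to 4.34). Against PM10/OVA it was 6.06-fold lower with CPX (4.47 to 8.36) and 13.8-fold lower with dexamethasone (8.81 to 22.9). The dexamethasone level was 1.82-fold that of control, with an interval of 0.898 to 3.76. In whole tissue, fewer cells of a type and less RNA per cell cannot be told apart.

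Ccl7 (chromosome 11, 82045712 to 82047525), which binds several CC receptors, lies 8.26 kb from Ccl2. Its level was 0.404 CPM without exposure, 3.56 with PM10, 22.3 with PM10/OVA, 2.79 with added CPX and 2.52 with added dexamethasone. Control was lowest and PM10/OVA highest, while PM10, CPX and dexamethasone did not differ beyond counting error between neighbours. Of the 9 genes, Ccl7 had the highest ratio of PM10/OVA over PM10, 6.25-fold (4.55 to 8.79), and of PM10/OVA over control, 55.2-fold on 353 counts against 7 (26.5 to 138). It was 7.97-fold lower with CPX (5.62 to 11.6) and 8.83-fold lower with dexamethasone (6.07 to 13.3).

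Ccl12 (chromosome 11, 82101845 to 82103400), a rodent monocyte chemokine, was at 0.404 CPM without exposure, 2.82 with PM10, 10.2 with PM10/OVA, 3.99 with added CPX and 2.77 with added dexamethasone. Again PM10/OVA was highest and control lowest, and the other 3 libraries did not differ beyond counting error between neighbours. Its difference from PM10/OVA was smaller than for Ccl2 and Ccl7 under both drugs, 2.54-fold lower with CPX (1.84 to 3.57) and 3.66-fold lower with dexamethasone (2.50 to 5.50). Against control, Ccl12 was 9.89-fold higher with CPX (4.46 to 25.9) and 6.88-fold higher with dexamethasone (2.99 to 18.4).

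**Figure D1:**
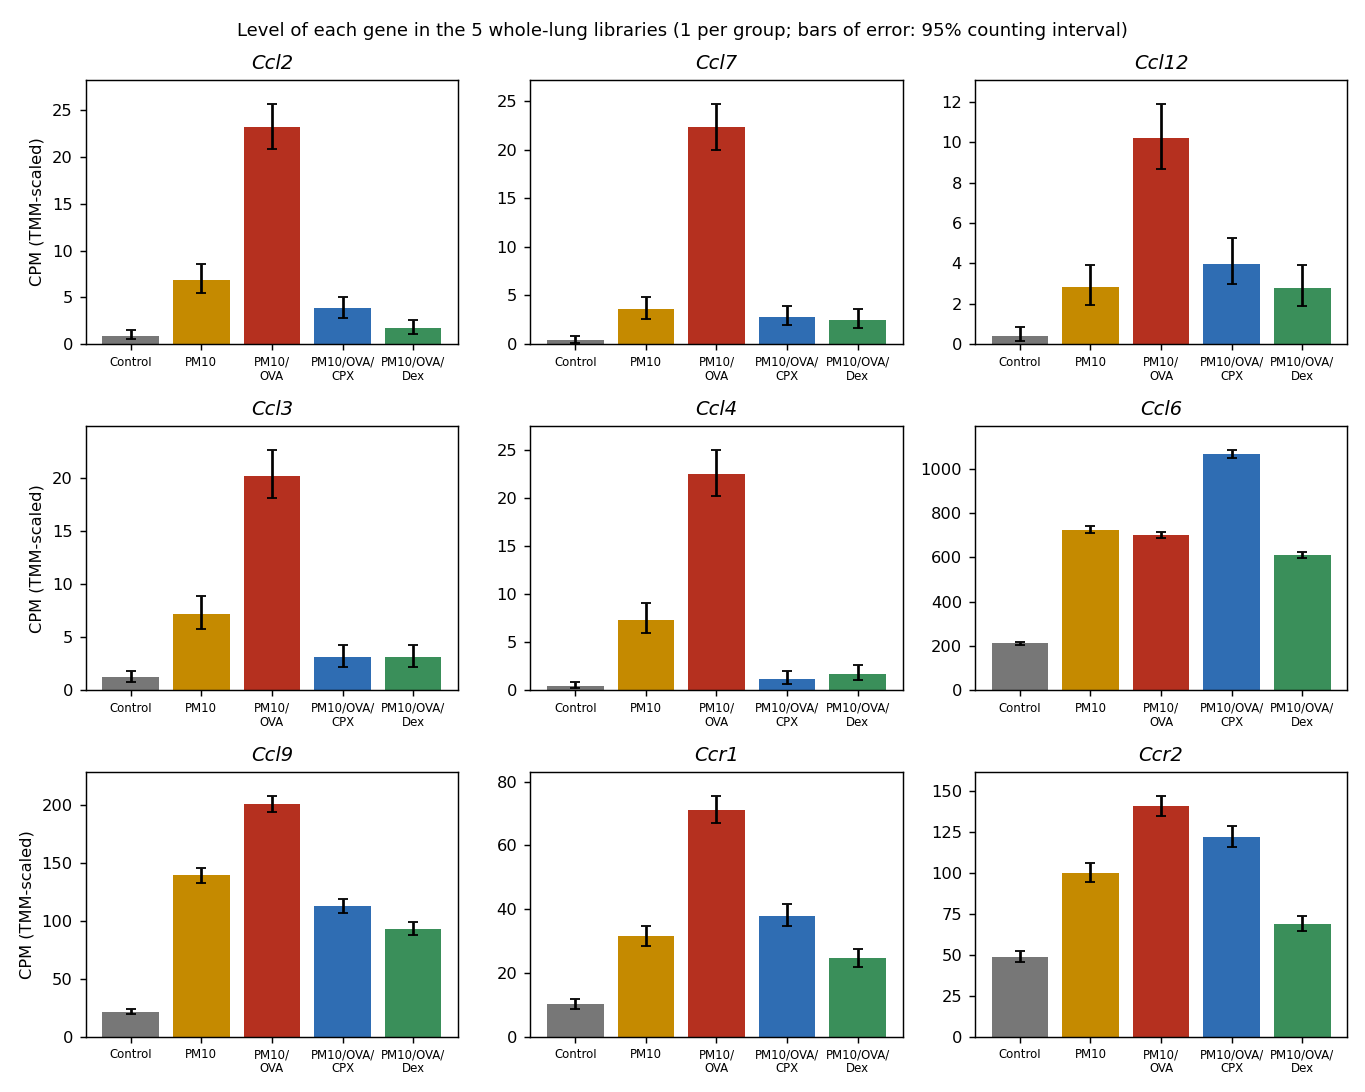
Level of each of the 9 genes in CPM (vertical axis, its own scale for each gene, from 0) in the 5 libraries, 1 per group; error bars are exact 95% Poisson intervals of the count. The PM10/OVA bar is the highest for 8 genes and control the lowest for all 9, while Ccl6 is highest in PM10/OVA/CPX at 1066 CPM.

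Ccl3 and Ccl4, inflammatory chemokines made by activated macrophages, neutrophils and lymphocytes, followed the same order at the top. Ccl3 (chromosome 11, 83647844 to 83649355) was at 1.21 CPM without exposure, 7.21 with PM10, 20.2 with PM10/OVA, 3.11 with added CPX and 3.11 with added dexamethasone. Both drug-treated libraries stood below PM10 and above control, and their ratio to each other was 0.999 (0.620 to 1.61). Relative to PM10/OVA, Ccl3 was 6.5-fold lower with CPX (4.65 to 9.32) and 6.51-fold lower with dexamethasone (4.62 to 9.41).

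Ccl4 (chromosome 11, 83662584 to 83664683), 13.2 kb from Ccl3 on the opposite strand, was at 0.461 CPM without exposure, 7.37 with PM10, 22.5 with PM10/OVA, 1.20 with added CPX and 1.68 with added dexamethasone. It was low in control and in both drug-treated libraries and high only in PM10 and PM10/OVA. Ccl4 had the highest plain CPM ratio of PM10 over control among the 9 genes, 16-fold on 89 counts against 8 (7.77 to 38.2). On the log2 scale of CPM + 1, Ccl9 was higher, at 2.64 against 2.52. Under CPX, Ccl4 had the largest difference of the 9 genes, 18.8-fold lower than PM10/OVA on 15 counts against 357 (11.2 to 33.9), and it was 13.4-fold lower with dexamethasone (8.54 to 22.2). The ratio of dexamethasone over CPX was 1.40 with an interval of 0.683 to 2.95. In the CPX library Ccl4 was 2.60-fold above control (1.03 to 7.07).

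Ccl6 and Ccl9 were the abundant ligands and differed from the others. Ccl6 (chromosome 11, 83587882 to 83593087), a chemokine of macrophages and other myeloid cells, was at 212 CPM without exposure, 726 with PM10, 701 with PM10/OVA, 1066 with added CPX and 611 with added dexamethasone. Here the CPX library was highest and control lowest, and PM10 and PM10/OVA were nearly level, with a ratio of 0.966 (0.939 to 0.993). Ccl6 was 3.43-fold higher in PM10 than in control (3.30 to 3.56), 1.52-fold higher with CPX than in PM10/OVA (1.48 to 1.56) and 1.15-fold lower with dexamethasone (1.11 to 1.18). The antisense gene E230016K23Rik, which overlaps Ccl6, had 10 to 28 counts per library, and the strand setting of the counting is not known.

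Ccl9 (chromosome 11, 83572919 to 83578636), 9.25 kb from Ccl6, was at 21.6 CPM without exposure, 140 with PM10, 201 with PM10/OVA, 113 with added CPX and 93.4 with added dexamethasone. All neighbouring levels were apart in counting error, with PM10/OVA highest and both drug-treated libraries below PM10. It was 6.48-fold higher in PM10 than in control (5.79 to 7.26) and 1.44-fold higher in PM10/OVA than in PM10 (1.35 to 1.52). With CPX it was 1.78-fold lower than in PM10/OVA (1.67 to 1.90) and with dexamethasone 2.15-fold lower (2.00 to 2.30). Thus Ccl6 and Ccl9, neighbours on the same strand, had ratios on opposite sides of 1 in the CPX library.

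Per kb of annotated exon, Ccl6 led the ligands in every library, from 118 CPM per kb in control to 594 in PM10/OVA/CPX. In PM10/OVA it was at 390 CPM per kb and Ccl9 at 65.9, while Ccl2, Ccl7, Ccl12, Ccl3 and Ccl4 were between 18.9 and 34.1. Ccl6 made up 91.2% of the length-scaled level of the 7 ligands in control, 83.1% with PM10, 66.9% with PM10/OVA, 91.2% with added CPX and 87.9% with added dexamethasone. The mix of ligands in the lung was thus broadest in PM10/OVA. Exon lengths are those of GENCODE M21, which may not be the models the authors counted on.

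The start regions of these genes are shown for Ccl6 and Ccl9, whose levels parted under CPX, and for Ccl3 and Ccl12, from the groups that were lower under both drugs. RefSeq starts (GRCm38.p6) were matched by symbol for 6 of the 9 genes, Ccl12, Ccl3, Ccl6, Ccl9, Ccr1 and Ccr2. Each line gives the 250 bases before the start, 5′ to 3′ on the gene's strand, with capitals for matches to the motifs named after it.
Ccl6 (chr11:83593088-83593337, minus strand): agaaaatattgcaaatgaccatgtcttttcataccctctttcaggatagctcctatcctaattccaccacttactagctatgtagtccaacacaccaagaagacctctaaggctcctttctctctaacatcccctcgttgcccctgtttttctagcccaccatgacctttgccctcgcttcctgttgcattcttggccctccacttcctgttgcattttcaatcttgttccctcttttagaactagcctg
Ccl9 (chr11:83578637-83578886, minus strand): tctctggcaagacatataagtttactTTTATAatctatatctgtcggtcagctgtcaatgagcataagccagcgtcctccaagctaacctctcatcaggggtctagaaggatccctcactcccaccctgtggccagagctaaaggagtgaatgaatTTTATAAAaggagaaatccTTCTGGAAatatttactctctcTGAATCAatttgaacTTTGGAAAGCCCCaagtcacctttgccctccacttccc
Ccl3 (chr11:83649379-83649628, minus strand): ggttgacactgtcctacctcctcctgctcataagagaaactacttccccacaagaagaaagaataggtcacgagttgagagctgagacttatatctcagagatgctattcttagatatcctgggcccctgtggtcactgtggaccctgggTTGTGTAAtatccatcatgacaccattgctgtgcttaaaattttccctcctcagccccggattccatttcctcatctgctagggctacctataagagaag
Ccl12 (chr11:82101595-82101844, plus strand): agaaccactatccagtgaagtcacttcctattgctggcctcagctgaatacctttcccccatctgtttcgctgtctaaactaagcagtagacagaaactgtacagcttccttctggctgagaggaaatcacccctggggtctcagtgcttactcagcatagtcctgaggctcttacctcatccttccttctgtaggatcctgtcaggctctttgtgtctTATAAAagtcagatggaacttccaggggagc

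The motifs searched, on both strands, were the kappa-B consensus of NF-kB, TGANTCA (AP-1), TTNNGNAA (C/EBP), the GC box with letters GGGCGG, the TATA box with letters TATAAA, TTCNNNGAA (STAT), the interferon-stimulated response element and the glucocorticoid response element. Ccl9 held a kappa-B match 35 to 26 bases before the start, overlapping a C/EBP match at 38 to 31, and also an AP-1 match at 53 to 47, another C/EBP match and 3 TATA matches, 2 of them overlapping. Ccl6 held none of the 8 motifs in this window. Ccl12 held a TATA match 31 to 26 bases before the start, and Ccl3 a C/EBP match at 100 to 93. Over 32851 RefSeq starts, 3.90% of windows held the kappa-B consensus, 6.75% the AP-1 motif, 36.8% the C/EBP motif and 12.4% the TATA motif. The GC box (32.7% of all windows), the interferon element (2.98%), the STAT motif (7.02%) and the glucocorticoid element (0.387%) matched in none of the 6 genes. A match is a string of letters, not a shown binding site.

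Both receptors were lowest in control and highest in PM10/OVA. Ccr1 (chromosome 9, 123962124 to 123968692) was at 10.1 CPM without exposure, 31.4 with PM10, 71.2 with PM10/OVA, 37.9 with added CPX and 24.6 with added dexamethasone. Every neighbouring pair in this order was apart in counting error, and the CPX library lay above PM10 where the dexamethasone library lay below it. Ccr1 was 3.11-fold higher in PM10 than in control (2.59 to 3.74) and 2.27-fold higher in PM10/OVA than in PM10 (2.02 to 2.55). It was 1.88-fold lower with CPX (1.68 to 2.09) and 2.90-fold lower with dexamethasone (2.55 to 3.31).

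Ccr2 (chromosome 9, 124101950 to 124113557), 133 kb from Ccr1, was at 48.8 CPM without exposure, 100 with PM10, 141 with PM10/OVA, 122 with added CPX and 69.1 with added dexamethasone. The range over libraries was the narrowest of the 9 genes, 2.88-fold between PM10/OVA and control (2.66 to 3.13). The CPX library stood 1.15-fold below PM10/OVA (1.08 to 1.23), close to it, while its ligand Ccl2 was 6.06-fold lower in the same library. With dexamethasone Ccr2 was 2.04-fold lower than in PM10/OVA (1.88 to 2.21) and 1.42-fold above control (1.29 to 1.56).

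Counted together, the 9 genes were higher in the exposed lungs. A gene was counted when the ratio of CPM + 1 was at least 2-fold, a scale that understates differences of low genes. In PM10 against control all 9 were at least 2-fold higher, where 3.70% of all measured genes were (0 were lower, against 2.04% of genes), with a median log2 ratio of 1.77 against 0.00 over all genes. Ccr2 was just past the threshold, at a log2 ratio of 1.02, and with scaling by library totals the count was 8 of 9. In PM10/OVA against PM10, Ccl2, Ccl7, Ccl12, Ccl3, Ccl4 and Ccr1 were at least 2-fold higher, 6 of 9, where 0.692% of all genes were, 0 were lower, against 1.27%, and the median was 1.37 against 0.00. Ccl9 at 0.52, Ccr2 at 0.49 and Ccl6 at -0.05 were under the threshold. Both exposures against control again placed all 9 higher, against 3.17% of genes, and 0 lower, against 2.73%, with a median of 3.16 against 0.01. With a pseudocount of 5 CPM in place of 1, the count in PM10 against control was 5 of 9. Under that setting 304 of all genes were at least 2-fold higher in place of 529.

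Both drugs were compared with the same PM10/OVA library, so their ratios share it. With CPX, 5 of 9 genes, Ccl2, Ccl7, Ccl12, Ccl3 and Ccl4, were at least 2-fold lower, where 0.762% of all genes were, 0 were higher, against 0.636%, and the median log2 ratio was -1.16 against 0.00. Ccr1 at -0.89, Ccl9 at -0.83 and Ccr2 at -0.20 were under the threshold, and Ccl6 was at 0.60. With dexamethasone 8 of 9 were at least 2-fold lower, where 1.60% of all genes were, and 0 were higher, against 1.20%, with a median of -1.56 against -0.01. Ccr2 was just past the threshold at -1.01, and Ccl6 was the exception at -0.20.

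Set directly against each other, the drugs gave a median log2 ratio of dexamethasone over CPX of -0.40 over the 9 genes against -0.01 over all genes, but none reached 2-fold on CPM + 1, where 0.734% of genes were lower and 1.06% higher. Ccl2 was 2.28-fold lower on dexamethasone (1.33 to 4.05), Ccr2 1.77-fold (1.63 to 1.93), Ccl6 1.74-fold (1.70 to 1.80), Ccr1 1.54-fold (1.33 to 1.79) and Ccl9 1.21-fold (1.11 to 1.31). For Ccl7, Ccl12, Ccl3 and Ccl4 the interval of this ratio included 1. Relative to control, 7 of 9 genes were still at least 2-fold higher with CPX, where 2.73% of all genes were, and 5 of 9 with dexamethasone, where 1.57% were. None was lower, against 2.99% and 2.01% of genes. The higher genes were Ccl7, Ccl12, Ccl6, Ccl9 and Ccr1 under both drugs, and also Ccl2 and Ccr2 under CPX. With a pseudocount of 5 CPM these counts were 4 with CPX and 2 with dexamethasone, and with 0.25 CPM they were 9 and 7.

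**Figure D2:**
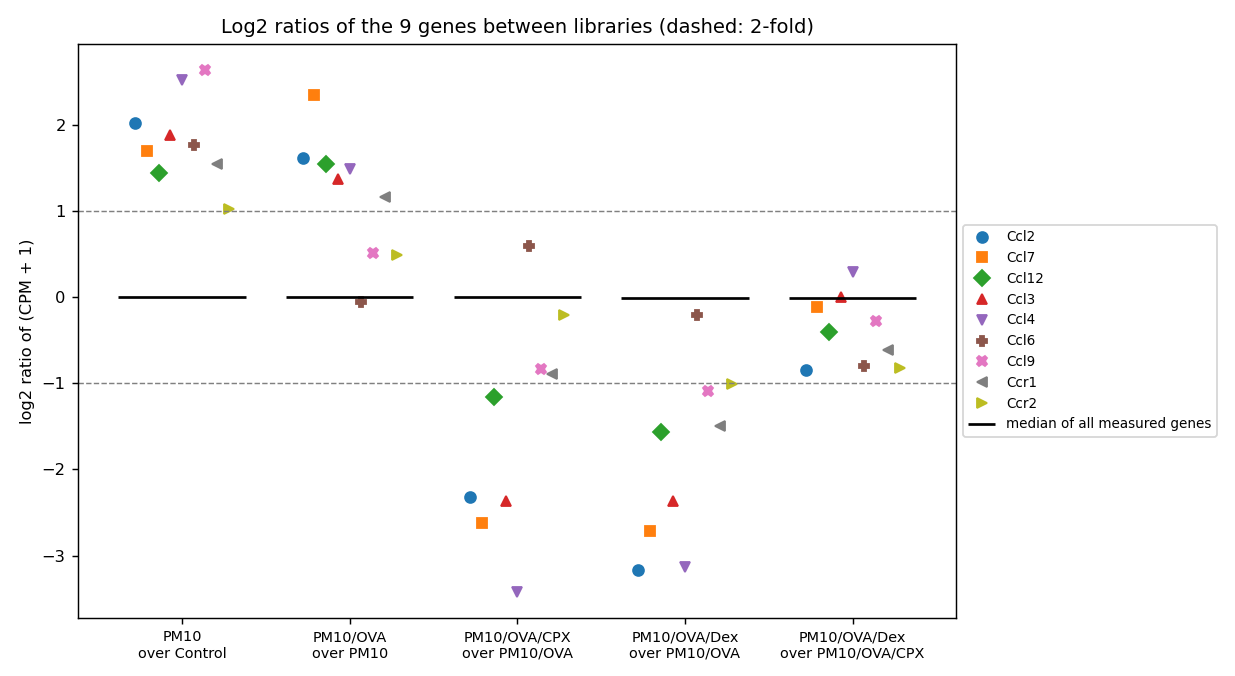
Log2 ratio of CPM + 1 (vertical axis) for the 9 genes in 5 comparisons of libraries (horizontal axis); each symbol is a gene, black lines are the median of all measured genes and dashed lines mark 2-fold. Ccl2, Ccl7, Ccl12, Ccl3 and Ccl4 fan out to -3.42 under CPX and -3.17 under dexamethasone, while Ccl6 lies at 0.60 and -0.20.

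Shares of counts within related genes do not depend on the scaling between libraries, and they showed that members of a set did not move in step. Among Ccl2, Ccl7 and Ccl12, Ccl12 held 18.3% of the counts in PM10/OVA (exact 95% binomial interval 15.8 to 21.0), 37.6% with CPX (29.3 to 46.4) and 39.8% with dexamethasone (29.2 to 51.1). Its share in control was 23.3% of only 30 counts (9.93 to 42.3) and in PM10 21.2% (15.2 to 28.4). The intervals of both drug-treated libraries lay above that of PM10/OVA. The share of Ccl2 was 41.7% in PM10/OVA (38.4 to 45.1) and lower with dexamethasone at 24.1% (15.4 to 34.7), and it was 36.1% with CPX (27.9 to 44.9), an interval that overlaps that of PM10/OVA.

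Ccl4 took 52.7% of the counts of Ccl3 and Ccl4 in PM10/OVA (48.8 to 56.5) and 50.6% in PM10 (42.9 to 58.2), but 27.8% with CPX (16.5 to 41.6). Its share was 35.1% with dexamethasone (22.9 to 48.9) and 27.6% in control (12.7 to 47.2). The CPX and control intervals lay below that of PM10/OVA, and the dexamethasone interval touched it. Ccl9 held 22.2% of the counts of Ccl6 and Ccl9 in PM10/OVA (21.6 to 22.9), 16.1% in PM10, 13.3% with dexamethasone, 9.56% with CPX (9.09 to 10) and 9.25% in control (8.37 to 10.2). The CPX and control intervals for this pair overlapped. Ccr1 held 33.6% of the counts of both receptors in PM10/OVA (32.0 to 35.2), 23.9% in PM10, 23.6% with CPX, 26.2% with dexamethasone and 17.1% in control (14.9 to 19.6).

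**Figure D3:**
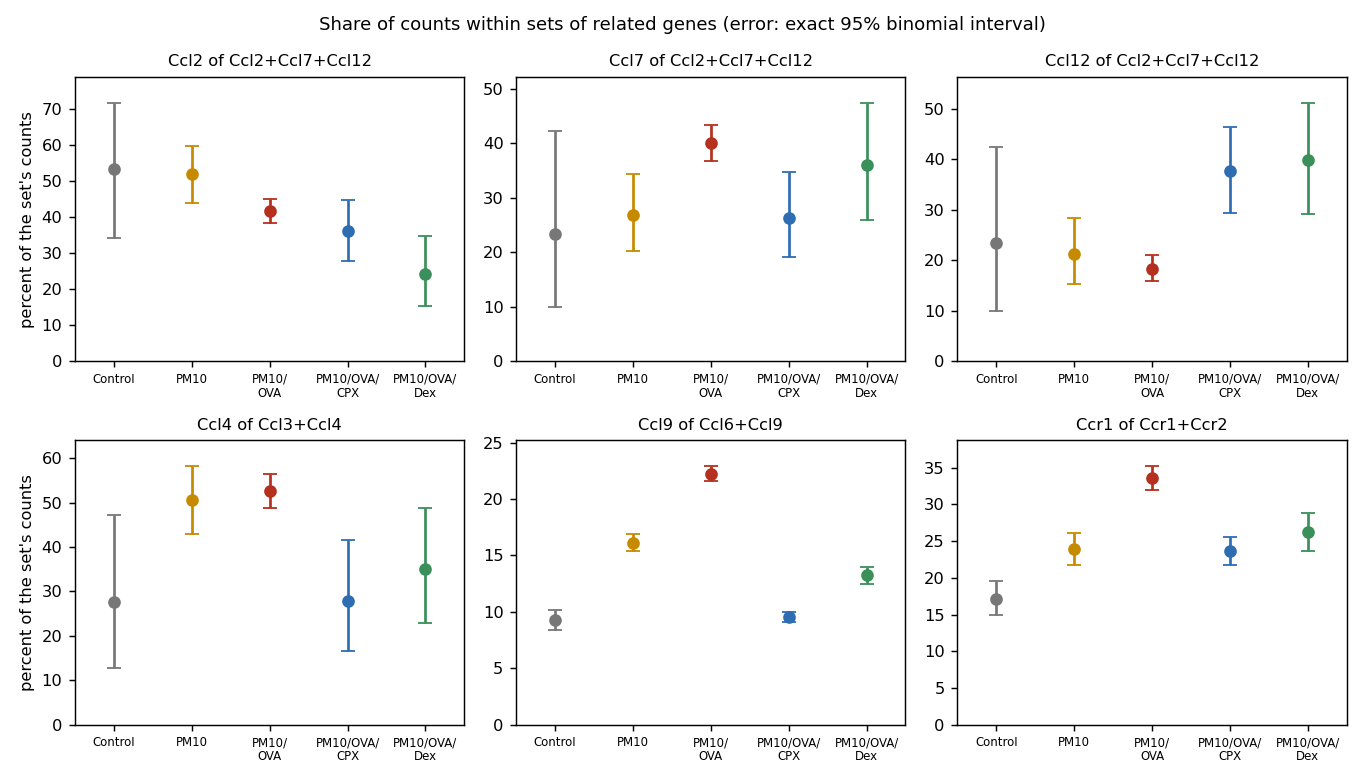
Percent of the counts of a set of related genes (vertical axis, from 0) held by the gene in each panel's title, in the 5 libraries; error bars are exact 95% binomial intervals. Ccl9 and Ccr1 take their largest share in PM10/OVA, at 22.2% and 33.6%, and Ccl12 takes 37.6% and 39.8% in the drug-treated libraries against 18.3% in PM10/OVA.

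Other CC chemokines were mixed: some were lowest in control and highest in PM10/OVA, as 8 of the 9 genes were, and others were not. Of 15 listed ligands, a list that includes the fractalkine gene Cx3cl1 of another chemokine class, 12 were measured. At least 2-fold higher were 3 of 12 in PM10 against control (3.70% of all genes), 4 in PM10/OVA against PM10 (0.692%) and 5 in PM10/OVA against control (3.17%), and none was lower in these. Against PM10/OVA, 1 was higher (0.636%) and 2 lower (0.762%) with CPX, and 0 were higher (1.20%) and 2 lower (1.60%) with dexamethasone. Ccl8, a further monocyte and T cell attractant that lies in the same stretch of chromosome 11 as Ccl12, was at 1.5 CPM without exposure, 29.9 with PM10, 69.3 with PM10/OVA, 120 with added CPX and 94.8 with added dexamethasone. Unlike its neighbours Ccl7 and Ccl12, Ccl8 was higher in both drug-treated libraries than in PM10/OVA. The eosinophil attractant Ccl11, which lies between Ccl7 and Ccl12, was at 4.90 CPM without exposure, 4.97 with PM10, 27.3 with PM10/OVA, 58 with added CPX and 25.5 with added dexamethasone. It was 2.13-fold higher with CPX than in PM10/OVA (1.89 to 2.41).

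Ccl22, a T cell attractant of dendritic cells and macrophages, was at 2.19 CPM without exposure, 10.9 with PM10, 21.7 with PM10/OVA, 5.83 with added CPX and 6.90 with added dexamethasone. It was 3.72-fold lower with CPX (2.88 to 4.86) and 3.15-fold lower with dexamethasone (2.47 to 4.05). Ccl24, an eosinophil attractant, was 2.55-fold lower with CPX (1.83 to 3.60) and 5.29-fold lower with dexamethasone (3.37 to 8.68), from 9.78 CPM in PM10/OVA. Ccl17, which attracts T helper cells, was at 1.1 CPM without exposure, 4.64 with PM10, 14.1 with PM10/OVA, 10.3 with added CPX and 8.66 with added dexamethasone. Ccl22 and Ccl17 thus also had control lowest and PM10/OVA highest. Ccl5, a Ccr1 ligand made by T and NK cells, ranged only from 17.0 to 37.7 CPM. The lymphoid-tissue ligand Ccl21a (35.3 to 47.7 CPM) and the membrane-bound Cx3cl1 (51.1 to 56.7 CPM) had narrow ranges, and Ccl19, Ccl20, Ccl25 and Ccl28 did not exceed 4.62 CPM. Ccl1, Ccl26 and Ccl27a were under the filter.

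Among 12 other receptors, 10 were measured. Ccr7, a receptor of lymphocytes and migrating dendritic cells, was at 26.3 CPM without exposure, 24.9 with PM10, 25.5 with PM10/OVA, 16.7 with added CPX and 11.9 with added dexamethasone. The first 3 of these libraries were nearly level and both drug-treated libraries lay below them, unlike the 9 genes, which were lowest in control. Against PM10/OVA, Ccr7 was 2.13-fold lower with dexamethasone (1.76 to 2.60). On the CPM + 1 scale it was 1 of 10 at least 2-fold lower with dexamethasone (1.60% of all genes). None of 10 passed 2-fold with CPX (0.762% lower and 0.636% higher). The scarcer Ackr1 was 2.45-fold lower with dexamethasone as a plain CPM ratio (1.44 to 4.33). Cx3cr1, a receptor of patrolling monocytes and macrophages, was highest in PM10 at 28.7 CPM and lay between 12.7 and 21.3 CPM elsewhere. Ccr3, the eosinophil receptor, was highest with CPX at 32.4 CPM against 18.1 in PM10/OVA. The decoy receptor Ackr2, which removes CC chemokines, ranged from 40.4 to 54.0 CPM, Ackr4 from 7.15 to 16.7 and Ackr1 from 0.980 to 3.91. Ccrl2 was highest in PM10/OVA at 73.0 CPM, Ccr4 in PM10 at 4.14, and Ccr6 ranged from 3.40 to 4.73 and Ccr9 from 3.20 to 5.96.

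**Figure D4:**
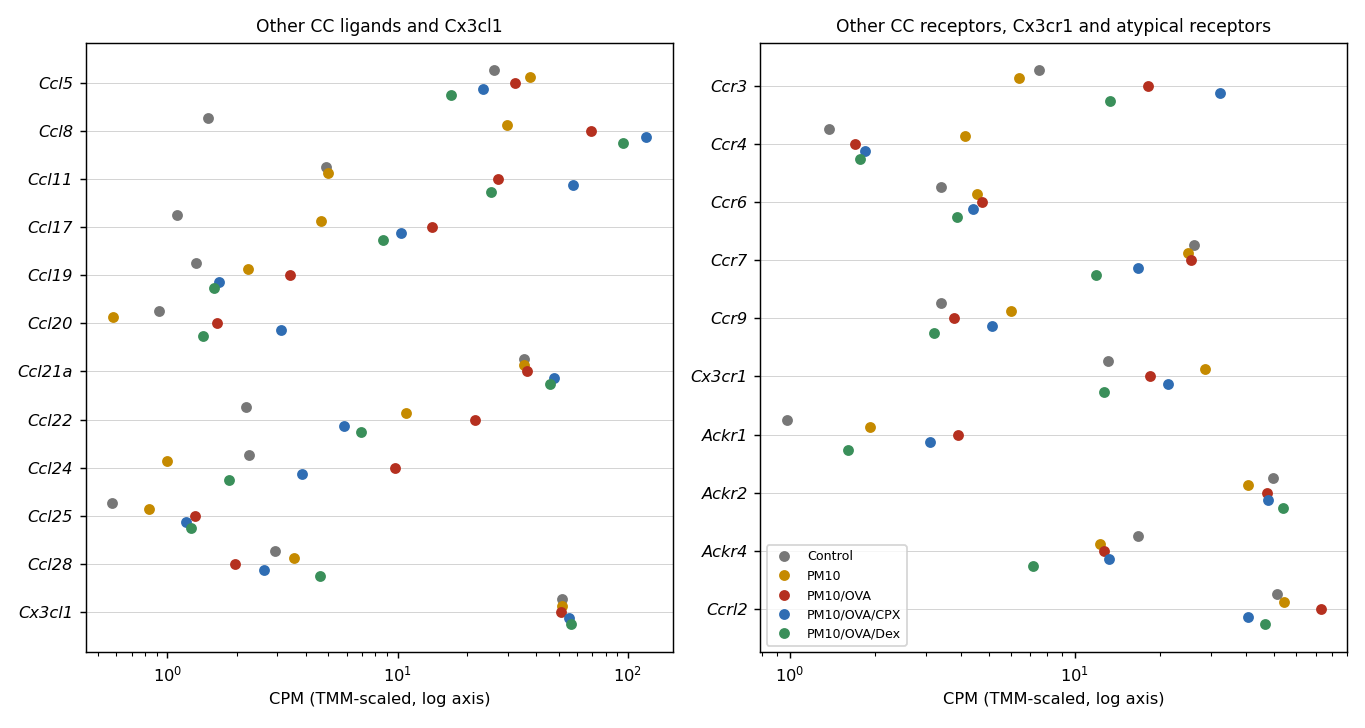
Level in CPM (horizontal log axis) of 12 other ligands (left) and 10 other receptors (right), with a point for each of the 5 libraries in the colours of the legend. Ccl8 runs from 1.5 in control to 120 CPM with CPX, Ccrl2 peaks in PM10/OVA at 73.0 CPM, and Cx3cl1 and Ackr2 hardly spread.

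Signals linked to induction of these ligands were read from a list of 20 genes, of which 18 were measured. The list holds cytokines and transcription factors, and also Nfkbia and Tnfaip3, feedback inhibitors of NF-kB. In PM10 against control 3 were at least 2-fold higher (3.70% of all genes), Tnf, Il1b and Irf7, and none lower (2.04%). The inflammatory cytokine Il1b was at 16.5 CPM without exposure, 54.4 with PM10, 133 with PM10/OVA, 45.4 with added CPX and 30.6 with added dexamethasone, and Tnf at 0.346, 4.31, 7.07, 1.92 and 1.01. Both thus had the order of Ccl2. For Tnf the step from CPX to dexamethasone was within counting error, with a ratio of 0.527 on 12 counts against 24 (0.240 to 1.09). With CPX against PM10/OVA 5 of 18 were at least 2-fold lower (0.762% of all genes), Tnf, Il1b, Il6, the macrophage growth factor Csf1 and the inhibitor Tnfaip3. With dexamethasone 5 were (1.60%), Tnf, Il1a, Il1b, Il6 and Csf1. Csf1 was 2.50-fold lower with CPX (2.26 to 2.77) and 2.27-fold lower with dexamethasone (2.06 to 2.52). Among the NF-kB subunit genes, Nfkb2 was at 41.6 CPM without exposure, 62.5 with PM10, 88.6 with PM10/OVA, 47.5 with added CPX and 54.7 with added dexamethasone, and it was 2.13-fold higher in PM10/OVA than in control (1.95 to 2.33). Relb was also highest in PM10/OVA, at 35.3 CPM, and lowest in control, at 19.3. Rela ranged from 95.1 to 116 CPM and Nfkb1 from 136 to 165 CPM. Irf7, a factor of the interferon response, was at 452 CPM in PM10 and at 23.9 to 43.5 in the others, a pattern that none of the 9 genes had.

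Downstream of the receptors, 31 signalling genes were all measured. Their median log2 ratio was 0.16 in PM10 against control, -0.06 with CPX and -0.17 with dexamethasone against PM10/OVA. In PM10 against control 2 were at least 2-fold higher (3.70% of all genes), Rgs1, which limits receptor signalling, and Pik3r5, a regulatory subunit of the kinase activated by these receptors. Fgr, a myeloid tyrosine kinase, was the only one of 31 at least 2-fold lower with dexamethasone (1.60%), and none was with CPX (0.762%). Gnai2, the inhibitory G protein subunit, lay between 607 and 789 CPM in all 5 libraries.

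Cell markers bear on how many monocytes and other myeloid cells each lung piece held. All 12 classical monocyte markers were measured, none was at 0 in any library, and they summed to 740 CPM without exposure, 1217 with PM10, 1223 with PM10/OVA, 1085 with added CPX and 709 with added dexamethasone. Fn1 alone made up 460, 606, 620, 685 and 393 CPM of these sums, in the same order. The median marker level was 22.6, 55.2, 48.4, 36.3 and 31.0 CPM, so by the median dexamethasone lay above control. In PM10 against control 8 of 12 were at least 2-fold higher (3.70% of all genes), led by Clec4e at 12.8-fold (9.15 to 18.4) and Fcgr1 at 6.67-fold (5.48 to 8.17). In PM10/OVA against PM10, where 6 of the 9 chemokine genes were higher, 1 marker was higher (0.692%), the endotoxin coreceptor Cd14. In that comparison 3 were lower (1.27%), Ly6c2, Ms4a4c and Fcgr1. With CPX 4 of 12 were at least 2-fold lower (0.762%), F13a1, Vcan, Cd14 and Clec4e. With dexamethasone 6 were (1.60%), among them Vcan at 3.22-fold (2.64 to 3.94). The part of monocyte content in the chemokine levels was not tested.

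Neutrophil markers, of which 14 of 16 were measured and none was at 0 (Ly6g was not analysed here), summed to 643, 426, 919, 720 and 706 CPM without exposure, with PM10, with PM10/OVA, with added CPX and with added dexamethasone, and their median level was 15.7, 22.5, 53.1, 29.5 and 24.5 CPM. In PM10/OVA against PM10 8 of these 14 were at least 2-fold higher (0.692% of all genes). Against PM10/OVA, 3 were lower with CPX (0.762%), and with dexamethasone 6 were lower (1.60%) and 1 was higher (1.20%), the granule protein gene Ltf. Ltf alone made up 410 CPM of the control sum and 305 CPM of the dexamethasone sum. Neutrophils can carry Ccr1, Ccl3 and Ccl4, and the part of these cells in the levels was not tested. Interstitial macrophage markers (16 of 16 measured, none at 0) summed to 1363 CPM in control and to 2173 to 2544 CPM in the exposed libraries. Of these, 1 of 16 was at least 2-fold lower with either drug, Cd163 with CPX (0.762% of all genes) and Spp1 with dexamethasone (1.60%). Eosinophil markers, with 7 of 9 measured, summed to 108, 127, 164, 398 and 233 CPM in the same order of groups. Their median level was 6.46, 6.13, 11.7, 20.8 and 13.3 CPM. The library with the most Ccl6 thus also had the highest eosinophil sum and median. The sum was higher in PM10 than in control although 5 of 7 markers were lower. It was also higher with dexamethasone than in PM10/OVA although 4 of 7 were lower. That CPX library also had the highest sums of alveolar macrophage (979 CPM), dendritic cell (178 CPM) and B and plasma cell markers (1568 CPM). The median B and plasma cell marker was not highest there, at 45.8 CPM against 59.9 in PM10/OVA and 46.9 in control. Against PM10/OVA, 6 of these 9 markers were lower with CPX, while Jchain and Mzb1 were at least 2-fold higher (0.636% of all genes). The granule gene Epx was at 0 in control and PM10. The part of eosinophils or of these other cells in the Ccl6 level was not tested.

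The other marker lists, as sums against control over the 4 exposed libraries, were at 0.778 to 1.01 for nonclassical monocytes, 1.20 to 1.45 for alveolar macrophages, 1.28 to 1.78 for dendritic cells and 0.686 to 1.19 for T and NK cells. B and plasma cell markers were at 0.969 to 2.59, mast cell and basophil markers at 1.01 to 1.76, lung epithelium at 0.887 to 1.18, endothelium at 0.850 to 0.965 and fibroblasts at 0.871 to 1.39. A sum can hide markers that go the other way. With dexamethasone against control, 6 of 9 B and plasma cell markers were lower, Ms4a1 and Cd79b at least 2-fold (2.01% of all genes). Jchain and Mzb1 were at least 2-fold higher (1.57%). In the same comparison 7 of 9 nonclassical monocyte markers were lower, with a median level of 33.7 CPM against 59.7.

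**Figure D5:**
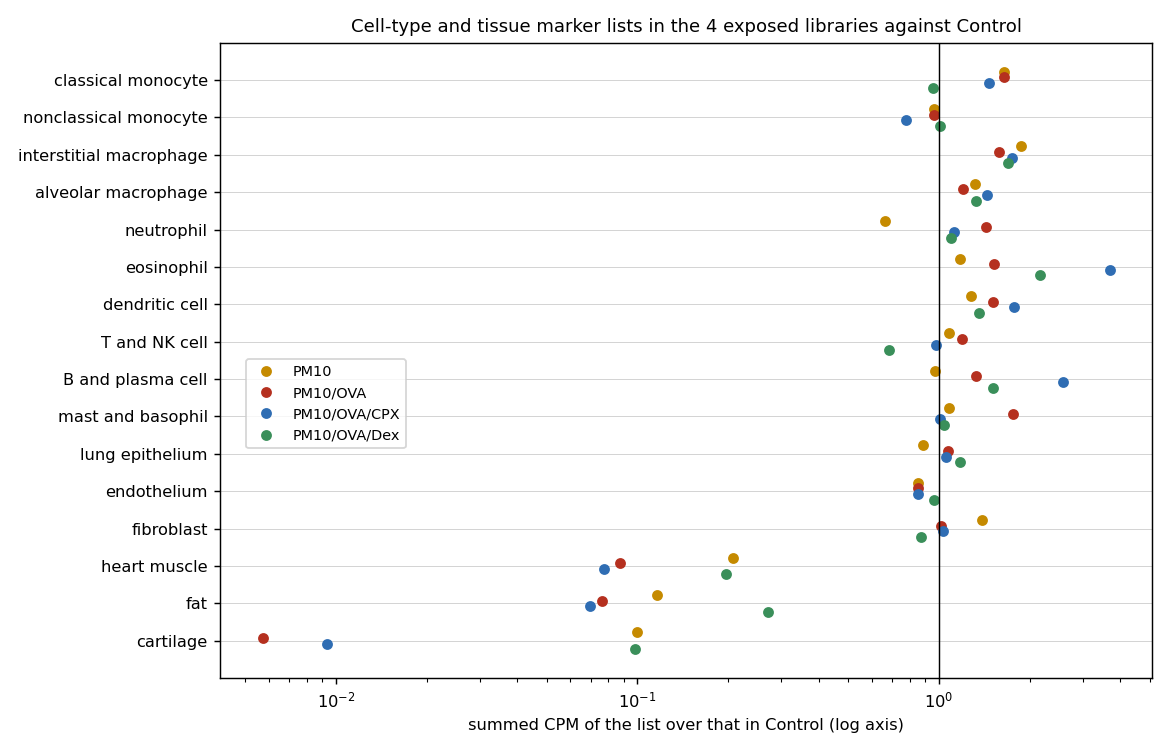
Summed CPM of 16 marker lists in the 4 exposed libraries, as a ratio to the sum in control (horizontal log axis; the line marks 1). Classical monocyte markers stand at 1.64, 1.65, 1.47 and 0.957 with PM10, PM10/OVA, added CPX and added dexamethasone, eosinophil markers reach 3.70 with CPX, and heart, fat and cartilage markers lie far below 1. Fn1 is the largest single gene in each classical monocyte sum.

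Genes with the most similar profile were found for 5 members by the root-mean-square difference of log2(CPM + 1) over the 5 libraries, each gene centred on its own mean, among 11641 genes. All values come from the same 5 libraries, so a small difference describes these libraries only. Closest to Ccl2 were Cxcl2, a neutrophil attractant (difference 0.26), Il1f9, an IL-1 family cytokine (0.33), Mefv (0.36), Il1b (0.38) and Il4i1 (0.39). Closest to Ccl3 were Mefv (0.13), Il4i1 (0.14), Il1f9 (0.24), the myeloid receptor Clec5a (0.26) and the haem-degrading enzyme Hmox1 (0.27). Ccl2 and Ccl3 thus had 3 of their 5 nearest genes in common.

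For Ccl6 the nearest genes were Clec4a2 (0.09), the formyl peptide receptor Fpr2 (0.10), Cd200r1 (0.13), Vnn3 (0.14) and Clec4a3 (0.16), and none of them was near Ccl2 or Ccl3. For Ccr1 they included Cd14 (0.10), Clec4n (0.22), Ptafr (0.22) and Slc7a8 (0.23). Ccr2 was nearest to Siglece, an inhibitory receptor of myeloid cells (0.03), followed by the complement factor Cfp (0.13), Igf1 (0.14), the inflammasome adaptor Pycard (0.14) and Plek (0.14). Among the 9 genes themselves, on this scale of CPM + 1, the closest pair was Ccl12 and Ccr1 (0.15). The farthest pair was Ccl4 and Ccl6 (1.35), although both of these lie within the same stretch of chromosome 11. The scale shrinks ratios of low genes such as Ccl12. As plain CPM ratios of PM10/OVA over control, Ccl12 was 25.2-fold higher and Ccr1 7.05-fold, so the closeness of this pair depends on the scale.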

How the data were processed

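Whole-lung RNA of 5 groups, 1 library each, was sequenced. Extraction used Trizol and library preparation the NEBNext Ultra II Directional kit, per the labels' protocols. The submitters' processing notes name TopHat and the genome build mm10 (GRCm38). The authors deposited raw read counts per gene symbol, without normalization. The counting tool, annotation, strand setting and handling of reads that match several genes were not given in the sources used here.

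Counts were scaled to CPM with TMM factors over the 5 libraries (edgeR 4.0.16, R 4.3.3), 0.989 to 1.025. Measured genes (14305) had a mean level of 1 CPM or more. Log2 ratios used a pseudocount of 1 CPM, and 2-fold on that scale was the call. Levels have exact Poisson 95% intervals, shares exact Clopper-Pearson intervals, and folds the conditional form of the latter (scipy 1.17.1); all cover counting error only. With 1 library per group no test was run. Ratios, intervals and calls were tested on simulated Poisson counts with known folds in genes at 5 CPM or more. That simulation did not cover changes in lower genes, folds near the threshold, TMM scaling or spread between animals. The other settings tried were DESeq2 1.42.0 size factors, library totals, pseudocounts of 0.25 and 5 CPM, no filter, and a mean level of 5 CPM or more. Positions and exon lengths are from GENCODE M21, start regions from RefSeq GRCm38.p6.

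The named genes are the 9 members, the measured other CC ligands and receptors, up to 4 members of each further list with the largest ratio in the comparison described, and the 5 nearest profiles of Ccl2, Ccl3, Ccl6, Ccr1 and Ccr2 (mean level of 5 CPM or more, no predicted models). Single genes named outside this rule, such as Rela, Relb, Nfkb1, Nfkb2, Gnai2, Fn1, Ltf and Epx, were chosen with their values seen. The members and lists were chosen with earlier results of these data known. Some genes of these lists and profiles are not reported here.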

Additional observations from a re-analysis of the deposited data

How the results depend on the processing

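No paired analysis was possible because each group has 1 library and the labels carry no replicate numbers; for the same reason no library could be left out. Under DESeq2 size factors and library totals, all 144 recomputed folds of the 9 genes lay within their counting intervals, and no scaling moved the median of all genes by 0.1 or more on the log2 scale. No call of the 9 genes changed direction. Of 96 recomputed counts of members past 2-fold, 4 moved by over 1.5 times. With a pseudocount of 5 CPM, the members at least 2-fold higher than control were 5 in PM10, 4 with CPX and 2 with dexamethasone, and with 0.25 CPM 1 member, in place of 0, was at least 2-fold lower with dexamethasone than with CPX. The member median for PM10 against control was 2.35 with a pseudocount of 0.25, 1.0 with 5 and 1.83 under a filter at 5 CPM, where Ccl12 drops out. For PM10/OVA against control it was 3.81 and 2.25 with these pseudocounts, and for dexamethasone against control 0.48 with 5 CPM. A higher pseudocount shrinks ratios of low genes by construction.

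Counts over all genes moved more. With a pseudocount of 5 CPM, genes at least 2-fold higher and lower were 304 and 141 for PM10 against control (main 529 and 292), 54 and 78 for PM10/OVA against PM10 (99 and 182), 261 and 203 for PM10/OVA against control (454 and 390), 35 and 58 for CPX against PM10/OVA (91 and 109), 55 and 101 for dexamethasone against PM10/OVA (172 and 229), 56 and 30 for dexamethasone against CPX (151 and 105), 199 and 214 for CPX against control (391 and 428) and 112 and 120 for dexamethasone against control (225 and 288). With 0.25 CPM they were 173 and 308 for PM10/OVA against PM10, 177 and 182 for CPX and 294 higher for dexamethasone against PM10/OVA, and 275 and 224 for dexamethasone against CPX. With the filter at 5 CPM, genes lower than control were 146 in PM10, 208 in PM10/OVA, 222 with CPX and 159 with dexamethasone, those higher than PM10/OVA were 50 with CPX and 106 with dexamethasone, and 58 were lower with dexamethasone than with CPX. Depth limits Ccl7, Ccl12 and Ccl4 most, with 7 to 8 counts each in control.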

Other observations

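The stretch of chromosome 11 that holds the 7 ligands also holds genes of other families, read here from a list of 12 neighbours of which 8 were measured. Wfdc17, a small secreted protein of macrophages that lies beyond Ccl4, was at 5.13 CPM without exposure, 40.2 with PM10, 49.7 with PM10/OVA, 26.3 with added CPX and 40.2 with added dexamethasone. It was at 40.2 CPM both with PM10 and with added dexamethasone, where Ccl3 and Ccl4 were lower with dexamethasone than in PM10. Slfn4, a myeloid gene of the Schlafen family between the groups of ligands, was highest in PM10 at 67.1 CPM, against 25.9 in PM10/OVA, 8.46 with CPX, 7.99 with dexamethasone and 4.79 in control. Most of the measured neighbours on this list were higher than control: 6 of the 8 were at least 2-fold higher in PM10 (3.70% of all genes). In PM10/OVA, 6 of the 8 were also at least 2-fold higher than control (3.17%), and none was lower in either. The neighbours parted in PM10/OVA against PM10. There 2 of the 8 were at least 2-fold higher (0.692%), Ccl8 and Ccl11, and 1 was lower (1.27%), Slfn4. The listed neighbours thus did not share a single profile. The list does not hold every gene of the stretch and was chosen with earlier results known. Whether position on the chromosome goes with level was not tested.

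Over the 5 libraries, PM10/OVA was the highest for 8 of the 9 genes, where it was the highest for 19.9% of all measured genes, and control was the lowest for all 9, where it was the lowest for 26.3%.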
